A study of Homo sapiens with 12 samples.

Results

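The thymidylate cycle and thymidine salvage were described through 9 genes: TYMS, SHMT1, SHMT2, TK1, TK2, DTYMK, DUT, DCTD and TYMP. They were chosen by name, as the enzymes that make, recycle, phosphorylate or break down the thymidine nucleotides, and each symbol matched 1 row of the deposited count table. These are 9 of 61541 rows, and all 9 were among the 16768 genes that passed the filter on low counts. Every value below is from RNA sequencing of libraries labelled A549, the name of an established human lung adenocarcinoma line. The control libraries did not match that label in the 9p21 genes, as given below. Each value is a transcript level and not an enzyme activity.

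There were 4 groups of 3 libraries, all taken 14 days after transduction. The control carried the non-targeting guide gNTC1, labelled with the genotype NTC KO, and the knockout carried Cas9 and a guide against TYMS, labelled TYMS KO and titled TS-KO. Each was grown alone or in co-culture, with no other treatment and in the same medium with fetal bovine serum. The series text names parental A549 as the partner of the knockout cells and states that proliferation of the knockout was restored in its presence. The labels and column names give 1 guide per genotype. The labels do not name the partner of the control cells. Whether RNA was taken after separating the partners is not said either, nor whether the 3 libraries of a group came from separate cultures, so the p-values measure the spread between these libraries only.

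Thymidylate synthase (TYMS) methylates deoxyuridine monophosphate (dUMP) to thymidylate (dTMP), and takes the methyl group from a folate that the serine hydroxymethyltransferases SHMT1 and SHMT2 help to charge. Its substrate comes from deoxycytidylate by the deaminase DCTD and from dUTP by the hydrolase DUT, which also keeps uracil out of DNA. The other route is salvage, in which the cytosolic kinase TK1 or the mitochondrial kinase TK2 phosphorylates thymidine. Both routes meet at the thymidylate kinase DTYMK, and thymidine phosphorylase (TYMP) removes thymidine by splitting it into thymine and a sugar phosphate. TK1 and TYMS are known for high transcript levels in dividing cells.

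The libraries held 14921371 to 35723762 counts. The lowest count of any of the 9 genes in any library was 265, for TYMS in a co-cultured knockout library. Chi-square statistics between replicates divided by the number of genes were 8.77 to 130, against 1 for counting noise, and no library was a repeat of another of its group. Pairs of libraries from different groups were not compared in this way. Replicates also differed by how GC-rich the transcripts were. The rank correlation with GC of each library's deviation from its group mean, across genes that are not independent replicates, lay between -0.772 and 0.753, and both extremes were co-cultured knockout libraries, replicates 3 and 2. For the calls that a correction for this trend moved most, the corrected value is given as well.

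A549 is known to lack the 9p21 genes CDKN2A, CDKN2B and MTAP, through a homozygous deletion. The 6 knockout libraries matched this, with 0 to 4 counts of CDKN2A, 0 of CDKN2B and 7 to 21 of MTAP. The 6 libraries labelled as control did not. They held 921 to 2127 counts of CDKN2A, 26 to 71 of CDKN2B and 801 to 1571 of MTAP. EPCAM, an epithelial surface gene, separated the groups in the same way, with lone control libraries at 104 ± 13.6 CPM and lone knockout libraries at 0.620 ± 0.264 CPM (SD, n = 3 each), where CPM is the gene's share of a library's counts, after scaling by the trimmed mean of M-values (TMM). Of 12 markers of lung epithelial lines, 12 were above 1 CPM in the control groups and 11 in the knockout groups. In any difference between knockout and control below, the guide and the identity of the cells therefore cannot be told apart. Differences between lone and co-cultured libraries of 1 genotype do not set these groups against each other, but the interaction given below does. In the co-cultured knockout, EPCAM stood at 0.322 ± 0.185 CPM and MTAP at 0.471 ± 0.163 CPM (SD, n = 3 each). Neither was higher than in the lone knockout, where MTAP was at 0.582 ± 0.0568 CPM. These levels bear only on admixture of cells like those of the control libraries. Parental A549, the named partner, is known to lack MTAP, so MTAP could not show its admixture. Whether that partner carries EPCAM is not shown here. Of 7 fibroblast markers 1 was above 1 CPM in each group. Of 6 leukocyte markers 0 to 2 were, with CD3E without a count in every library and PTPRC at 0 or 1 count. CD14 stood at 4.76 CPM in the lone and 2.63 in the co-cultured control, and at 0.866 in the lone and 3.25 in the co-cultured knockout. CD68 stood at 0.134 and 0.191 CPM in these controls and at 0.893 and 2.99 in these knockouts. Of 4 endothelial markers 0 to 1 were above 1 CPM, with VWF at 1.49 CPM in the lone control.

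TYMS, the targeted gene (ENSG00000176890, on the plus strand of chromosome 18 in GRCh38, 657604 to 673578), was measured at 90.3, 101 and 95.2 CPM in replicates 1 to 3 of the lone control. The co-cultured control gave 90.5, 94.2 and 95.7 CPM. It stood at 20.3, 20.96 and 21.4 CPM in the lone knockout and at 11.4, 11.004 and 10.7 CPM in the co-cultured knockout. The control groups overlapped, the knockout groups lay below both, and the co-cultured knockout lay below the lone knockout with no overlap. Replicates were close, with coefficients of variation of 2.62% to 5.52% in the 4 groups.

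TYMS was thus 4.57-fold lower in the lone knockout than in the lone control and 8.46-fold lower in the co-cultured knockout than in the co-cultured control (edgeR adjusted p = 7.29e-09 and 9.53e-10). Within the knockout it was 1.89-fold lower in co-culture (edgeR adjusted p = 0.000307). The interaction, the effect of co-culture on the knockout less its effect on the control, was -0.89 on the log2 scale (SE 0.15, edgeR adjusted p = 0.0107). Correction for GC left these values at -2.25, -3.12, -0.97 and -0.87 on the log2 scale, each still called. The call of the interaction was lost without a filter on low counts (-0.78, adjusted p = 0.103). In bulk RNA, fewer cells with a transcript and less of it per cell cannot be told apart.

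Of the 2470 exon bases of TYMS, 39.1% overlap exons of ENOSF1 and 7.4% those of TYMSOS, both on the other strand, and the strand setting of the counting is not given in the sources used here. ENOSF1 stood at 23.6 ± 0.699 CPM in the lone control, 21.9 ± 0.683 in the co-cultured control, 21.4 ± 2.0 in the lone knockout and 21.7 ± 2.38 in the co-cultured knockout (SD, n = 3 each). Its level did not follow the fall of TYMS. Reads of the overlap cannot be assigned to either gene from the counts. A share of exon bases is not a share of reads, so the low values of TYMS are uncertain to an extent that was not measured.

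**Figure D1:**
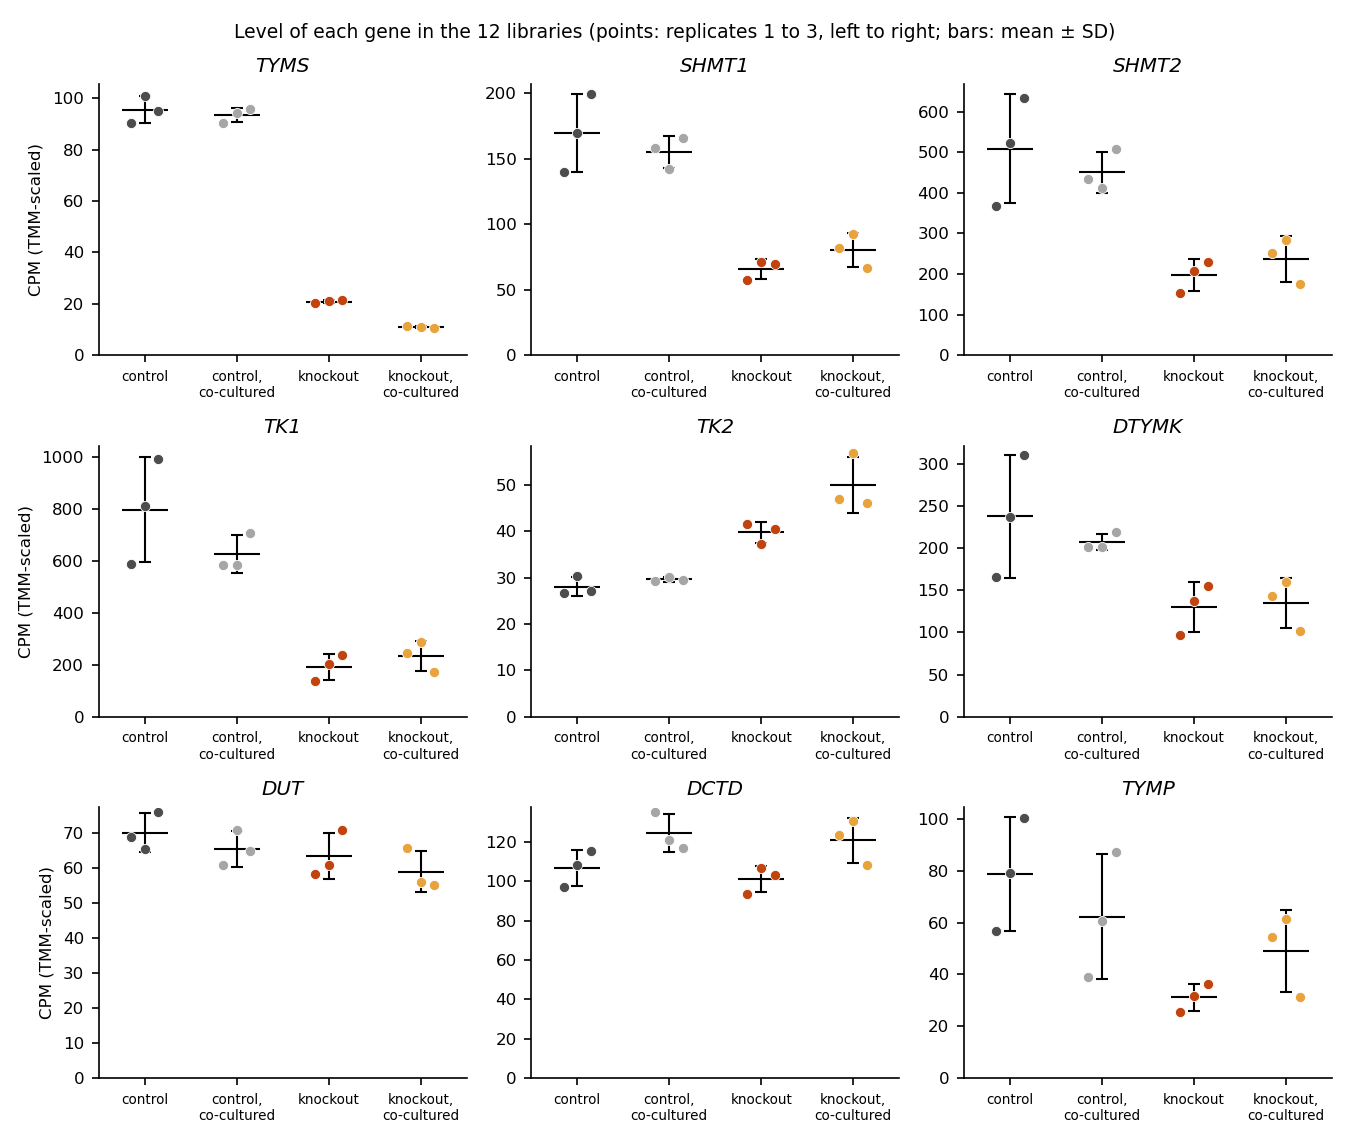
TMM-scaled CPM (vertical axes, from 0) of the 9 genes in the 4 groups; points are libraries, replicates 1 to 3 from left to right, and bars are the mean ± SD of 3. TYMS shows 3 levels, with group means of 95.4 and 93.4 CPM in the controls, 20.9 in the lone knockout and 11.05 in the co-cultured knockout, while the knockout and control ranges of DUT and DCTD overlap.

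SHMT1, the cytosolic serine hydroxymethyltransferase (ENSG00000176974, chromosome 17, 18327860 to 18363563, minus strand), stood at 140, 170 and 199 CPM in the lone control libraries and at 57.4, 71.1 and 69.8 CPM in those of the lone knockout. With co-culture it stood at 158, 142 and 166 CPM in the control and at 81.5, 92.3 and 66.6 CPM in the knockout. Every knockout library lay below every control library. SHMT1 was 2.57-fold lower in the lone knockout and 1.94-fold lower in the co-cultured knockout (edgeR adjusted p = 2.03e-05 and 0.000383).

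SHMT2, the mitochondrial enzyme of the same reaction (ENSG00000182199, chromosome 12, 57229327 to 57234935, plus strand), stood at 367, 522 and 635 CPM in the lone control libraries and at 154, 208 and 230 CPM in those of the lone knockout. Co-cultured libraries stood at 434, 411 and 507 CPM in the control and at 251, 284 and 175 CPM in the knockout. The knockout was 2.58-fold lower alone and 1.90-fold lower in co-culture (edgeR adjusted p = 0.000288 and 0.00462). With GC correction the lone difference was -0.93 on the log2 scale against -1.36 without, still called (edgeR adjusted p = 1.45e-06), while that of SHMT1 was -1.26 against -1.36. Without the correction the paralogs fell by nearly the same factor. The ratio of SHMT2 to SHMT1, both per kilobase of exon, was 4.46 ± 0.440 in the lone control, 4.37 ± 0.231 in the co-cultured control, 4.47 ± 0.456 in the lone knockout and 4.41 ± 0.389 in the co-cultured knockout (SD, n = 3 each), and these ranges overlapped.

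TK1, the salvage kinase of dividing cells (ENSG00000167900, chromosome 17, 78174075 to 78187233, minus strand), stood at 588, 808 and 991 CPM in the lone control libraries and at 139, 204 and 236 CPM in those of the lone knockout. Its levels in co-culture were 582, 585 and 708 CPM in the control and 247, 286 and 172 CPM in the knockout. Control and knockout did not overlap in either culture. TK1 was 4.13-fold lower in the lone knockout and 2.66-fold lower in the co-cultured knockout (edgeR adjusted p = 2.08e-05 and 0.000406). With GC correction the first value was -1.35 on the log2 scale against -2.04 without, still called (edgeR adjusted p = 1.46e-08).

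TK2, the mitochondrial kinase (ENSG00000166548, chromosome 16, 66508003 to 66552544, minus strand), was the exception in direction. It stood at 26.6, 30.4 and 27.2 CPM in the lone control libraries and at 41.5, 37.3 and 40.6 CPM in those of the lone knockout. In the co-cultured libraries it measured 29.3, 30.2 and 29.5 CPM in the control and 47.0, 56.9 and 46.0 CPM in the knockout. TK2 was the 1 gene of the 9 that rose with the knockout, by 1.42-fold alone and 1.69-fold in co-culture (edgeR adjusted p = 0.00478 and 0.000304). The lone call was lost without a filter on low counts (adjusted p = 0.0636). Exons of 2 unnamed long non-coding RNAs on the other strand cover 14.7% and 7.1% of the exon bases of TK2, and those of an unnamed coding gene on its own strand cover 3.2%.

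The balance of the salvage kinases differed accordingly. Per kilobase of exon, TK1 stood at 109 ± 28.4 times the level of TK2 in the lone control and at 81.3 ± 9.78 times in the co-cultured control (SD, n = 3 each). In the knockout the ratio was 18.8 ± 5.16 alone and 17.98 ± 3.18 in co-culture (SD, n = 3 each). The highest knockout library, at 22.4, lay below the lowest control library, at 74.7. These ratios were not corrected for GC. With the correction the lone difference of TK1 was -1.35 on the log2 scale against -2.04 without, and that of TK2 was 0.49 against 0.50.

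DTYMK, which phosphorylates the dTMP of both routes (ENSG00000168393, chromosome 2, 241675742 to 241686991, minus strand), stood at 165, 237 and 310 CPM in the lone control libraries and at 97.3, 137 and 155 CPM in those of the lone knockout. The co-cultured levels were 201, 202 and 219 CPM in the control and 143, 160 and 101 CPM in the knockout. Alone, the knockout was 1.83-fold lower (edgeR adjusted p = 0.00742) and 1.54-fold lower in the co-cultured knockout (edgeR adjusted p = 0.0445). The second call was the weakest of the 9 genes. It was lost in 8 of 14 alternatives, at adjusted p-values of 0.0654 to 0.120, among them DESeq2 and the removal of any 1 co-cultured control library or of replicate 1 or 3 of the co-cultured knockout. It held with GC correction (-0.55, adjusted p = 0.00136), as did the lone call, which went from -0.87 to -0.53 (adjusted p = 0.00177).

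DUT, the dUTPase (ENSG00000128951, chromosome 15, 48331011 to 48343373, plus strand), stood at 68.9, 65.5 and 76.2 CPM in the lone control libraries and at 58.4, 61.1 and 71.1 CPM in those of the lone knockout. Under co-culture the values were 60.9, 70.9 and 64.9 CPM in the control and 65.8, 56.0 and 55.2 CPM in the knockout. All 4 groups overlapped. The difference of lone knockout and lone control was -0.15 on the log2 scale (95% interval -0.40 to 0.11, edgeR adjusted p = 0.358). DUT has the lowest transcript GC content of the 9 genes, 45.1%, and with GC correction this difference was -0.57 and called (edgeR adjusted p = 0.0230). In co-culture the difference was -0.15 without and -0.11 with the correction, called in neither.

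DCTD, the dCMP deaminase (ENSG00000129187, chromosome 4, 182890060 to 182917936, minus strand), stood at 97.1, 108 and 115 CPM in the lone control libraries and at 93.5, 107 and 103 CPM in those of the lone knockout. Co-culture libraries gave 135, 121 and 117 CPM in the control and 123, 131 and 108 CPM in the knockout. Knockout and control overlapped in both cultures, with log2 differences of -0.08 (95% interval -0.33 to 0.17) alone and -0.04 (95% interval -0.29 to 0.21) in co-culture. The co-cultured libraries lay above the lone ones of the same genotype with no overlap, but neither difference was called (log2 0.22 in control and 0.26 in knockout, edgeR adjusted p = 1 and 0.192).

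TYMP, the catabolic enzyme (ENSG00000025708, chromosome 22, 50525752 to 50530056, minus strand), stood at 56.6, 79.0 and 100 CPM in the lone control libraries and at 25.6, 31.8 and 36.2 CPM in those of the lone knockout. For the co-cultured groups the values were 39.1, 60.5 and 87.2 CPM in the control and 54.3, 61.4 and 31.5 CPM in the knockout. Alone, TYMP was 2.53-fold lower with the knockout (edgeR adjusted p = 0.00276) and the groups did not overlap, whereas the co-cultured groups overlapped (log2 fold change -0.35, edgeR adjusted p = 0.369). The interaction was 0.99 (95% interval 0.14 to 1.84) and was not called (edgeR adjusted p = 0.248), so a different effect in the 2 cultures was not shown. It was called without replicate 3 of the co-cultured knockout (1.23, adjusted p = 0.0306) and without a filter on low counts (1.11, adjusted p = 0.00535). With GC correction it was 0.39 and not called (adjusted p = 0.0801).

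TYMP has the highest transcript GC content of the 9 genes, 68.5%, and in both knockout against control comparisons its value moved more with the GC correction than that of any other of the 9. The lone difference went from -1.34 to -0.24 (edgeR adjusted p = 0.0396), and with the replicate number as a block as well it was no longer called (-0.24, adjusted p = 0.0567). The co-cultured difference turned from -0.35 to 0.15, called in neither case. Co-cultured against lone knockout went from 0.66 (edgeR adjusted p = 0.173) to 0.45 (edgeR adjusted p = 0.00335). Exons of SCO2 and ODF3B on the same strand cover 10.2% and 10.5% of its exon bases, and SCO2 went from 19.9 ± 6.86 CPM without to 8.66 ± 1.98 CPM with the knockout in lone culture (SD, n = 3 each).

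In TK1, DTYMK and TYMP the order of the 3 libraries was the same as their order along the GC trend in 4 of 4 groups. SHMT2 had that order in 3 of 4 groups, TYMS, SHMT1 and DCTD in 2, and TK2 and DUT in 1. TK1, DTYMK and TYMP thus followed the trend in every group, and the part of the trend in their differences was not tested beyond the corrected values above.

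**Figure D2:**
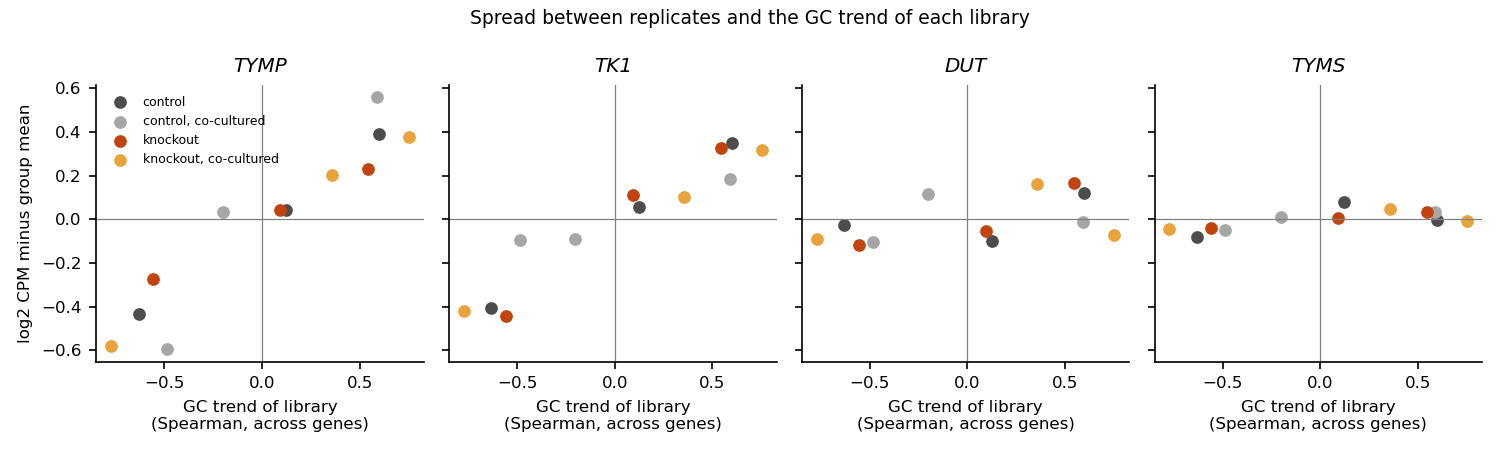
Log2 CPM of a library minus its group mean (vertical axis) against the GC trend of that library (horizontal axis, the Spearman correlation of its deviations with transcript GC across genes), for TYMP, TK1, DUT and TYMS; each point is 1 of 12 libraries, coloured by group. TYMP climbs with the trend over deviations of -0.59 to 0.56 and TK1 over -0.44 to 0.35, while TYMS stays between -0.08 and 0.08.

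Read together, the comparison of lone knockout with lone control called 7 of the 9 genes, 6 lower and 1 higher. Of all genes tested 56.6% were called in this comparison, 28.6% lower and 28% higher. The median log2 fold change of the 9 genes was -1.34, against 0.09 over all genes tested. That median is the value of TYMP, and with GC correction the median of the 9 was -0.57, against 0.01 over all genes. TYMS and TK1 had the largest differences of the 9, and 13.6% and 15.1% of all genes had a larger one. In co-culture the knockout and control differed in 6 of the 9 genes, 5 lower and TK2 higher, where 49.4% of all genes tested were called, 25.3% lower and 24.1% higher. The median of the 9 was -0.62 against -0.02 over all genes.

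Co-culture of the knockout moved 1 of the 9 genes past the threshold, where 11.4% of all genes tested were called, 5.97% higher and 5.4% lower, and that gene was TYMS, which fell. The other 8 were not called. TK1 differed by 0.28 (95% interval -0.19 to 0.76), SHMT1 by 0.28 (95% interval -0.04 to 0.60), SHMT2 by 0.26 (95% interval -0.18 to 0.71) and DTYMK by 0.05 (95% interval -0.41 to 0.52) on the log2 scale. These intervals reach from a small decrease to an increase of up to 0.76, so a partial return toward the control level was not detectable at this spread, and they do not show that the levels were the same. TK2 stood higher in every co-cultured than in every lone knockout library (log2 0.33, edgeR adjusted p = 0.107), but with scaling by library size only the groups overlapped, with a lone library at 47.05 CPM and a co-cultured one at 46.8 CPM. This comparison depends on single libraries. Without replicate 3 of the co-cultured knockout, TYMP was called too (0.90, adjusted p = 0.0221), and the count over all genes went from 1907 to 5680, while without its replicate 1 it went to 536.

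In the control, co-culture changed 0 of the 9 genes and 0% of all genes tested at the threshold. At an unadjusted p under 0.05, edgeR gave 0 of the 9 and 540 of all genes, and DESeq2 called 0 genes. The log2 differences of the 9 genes lay between -0.35 for TK1 and 0.22 for DCTD. In the interaction, 1 of the 9 genes, TYMS, was called, where 1.8% of all genes tested were, 1.51% higher and 0.286% lower. The comparisons share groups, so their values are set side by side and were not correlated.

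**Figure D3:**
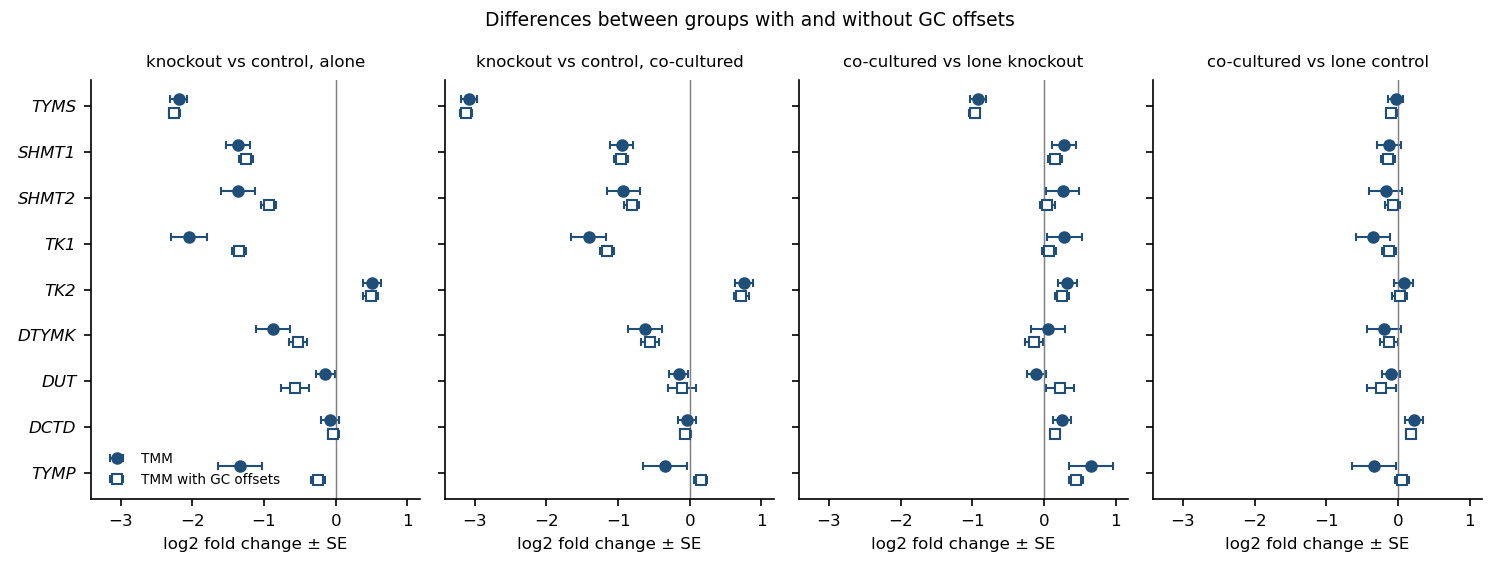
Log2 fold change ± SE of the 9 genes in 4 comparisons (panels), on the TMM scale (filled circles) and with GC offsets added (open squares). TYMS is lower in 3 panels under both settings, TK2 is the gene to the right of 0 in both knockout against control panels, and TYMP in the lone comparison shifts from -1.34 to -0.24.

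Levels of different genes were compared only as CPM per kilobase of exon. In the lone control TK1 led with 428 ± 109, followed by SHMT2 with 105 ± 27.7 and DTYMK with 96.9 ± 29.6, whose ranges overlapped (SD, n = 3 each). TYMS came next with 38.6 ± 2.13, then DCTD with 30.8 ± 2.63, TYMP with 23.7 ± 6.60, SHMT1 with 23.3 ± 4.10 and DUT with 19.1 ± 1.496, and from DCTD to DUT each neighbour overlapped the next. TK2 was the lowest at 3.91 ± 0.281. Among all genes tested, TK1 lay at the 99.5th percentile of this measure and TK2 at the 60.2nd.

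In the lone knockout TK1 still led with 104 ± 26.7 CPM per kilobase. DTYMK with 53.0 ± 12.1 and SHMT2 with 40.8 ± 8.0 overlapped, and DCTD followed with 29.2 ± 1.97 and DUT with 17.3 ± 1.82. TYMS, in the fourth place in the control, was in the eighth place with 8.45 ± 0.222, clear of TK2 at 5.55 ± 0.308. TYMP at 9.39 ± 1.61 overlapped SHMT1 at 9.08 ± 1.04, which overlapped TYMS. In the co-cultured knockout TYMS was the lowest of the 9 genes, at 4.47 ± 0.146 against 6.97 ± 0.837 for TK2, and those ranges did not overlap (SD, n = 3 each). The ratio of DUT to TYMS per kilobase went with this from 0.496 ± 0.0530 in the lone control to 2.04 ± 0.168 in the lone and 3.59 ± 0.246 in the co-cultured knockout (SD, n = 3 each).

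**Figure D4:**
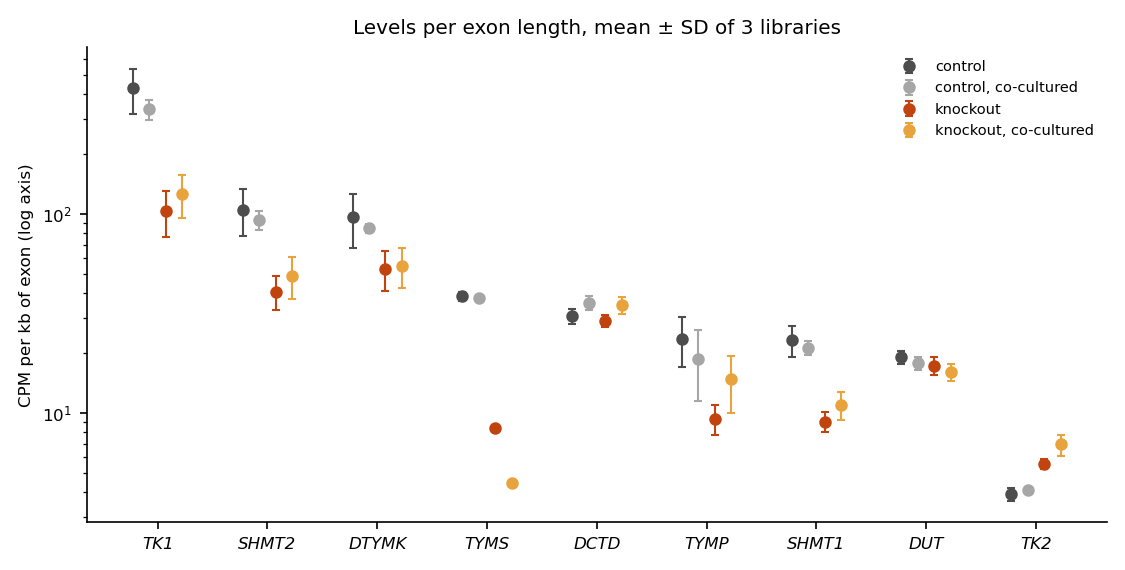
Mean CPM per kilobase of exon ± SD of 3 libraries (vertical axis, log scale) for the 9 genes, ordered by their level in the lone control, with 1 colour per group. TK1 is the highest gene in all 4 groups, and TYMS drops from the fourth place in the lone control to the last in the co-cultured knockout.

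Promoter sequences were looked at because TK1 and DTYMK fell with TYMS while DUT, also an enzyme of DNA synthesis, was not called without GC correction. RefSeq (GRCh38.p14) gave windows of 300 bases, 250 before and 50 after a start, for 8 of the 9 genes and 14 starts in all, with none matched for SHMT2. Each was searched on both strands. The E2F sites TTTGGCGC and TTTCGCGC were found in 1 of 14 windows, of DUT, against 1.15% of 35116 RefSeq windows. The cell cycle elements TTTGAA and TTCGAA were found in 2 of 14, of DUT and DTYMK, against 16.4%. The CCAAT box was found in 5 of 14 windows against 34.6%, and the GC box GGGCGG in 11 of 14 against 45%. Windows of 1 gene overlap and are not independent. TYMS held none of these letters in its window, but other forms of the E2F site were not searched for, in TYMS or in the other genes. A few stretches of 30 bases, chosen to show the CCAAT boxes of TK1, a box beside the cell cycle element in DTYMK and the E2F site of DUT, are printed in the direction of the gene with the motif in capitals, and the other matches are not printed, ATTGG being CCAAT on the other strand.
TK1, first box, chr17:78187112-78187141: ggccgggcgctgATTGGccccatggcggcg
TK1, second box, chr17:78187081-78187110: ggccggctcgtgATTGGccagcacgccgtg
DTYMK, chr2:241686886-241686915: ggccccggCCAATcccTTCGAAtttggccg
DUT, chr15:48332159-48332188: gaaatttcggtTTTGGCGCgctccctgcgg
TK1, which fell, thus held a pair of CCAAT boxes and no E2F letters of this form within its windows. SHMT1 and DTYMK, which also fell, held such a pair and no E2F letters too, and TYMP held a CCAAT box. No motif searched was found for TYMS, which fell, or for TK2, which rose. DUT held the E2F letters before the most downstream of its 4 RefSeq starts. Whether these motifs bear on the levels was not tested. These matches are descriptions of the reference sequence.

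Other genes of the pathway were read from lists chosen with earlier results of these data known. Of 30 S phase genes, 20 were lower and 0 higher in the lone knockout than in the lone control, with a median log2 fold change of -0.79, where 28.6% of all genes tested were lower and 28% higher. E2F2, a transcription factor of S phase entry, fell from 55.5 ± 6.33 to 13.4 ± 1.89 CPM, and CHAF1B, a chromatin assembly subunit, from 71.6 ± 8.19 to 24.2 ± 1.97 CPM (SD, n = 3 each). In co-culture 24 of 30 were lower and 1 higher, with a median of -1.01, where 25.3% of all genes were lower and 24.1% higher. Between co-cultured and lone knockout 7 of 30 were called, 2 higher and 5 lower, with a median of -0.12, where 11.4% of all genes were called. CCNE1, a cyclin of the G1 to S transition, rose from 33.8 to 51.9 CPM and UHRF1, a cofactor of DNA methylation, fell from 82.2 to 55.2 CPM. That count went from 0 without replicate 2 of the lone knockout to 9 without replicate 3 of the co-cultured knockout, and was 19 with GC correction. The count over all genes moved as well, from 1907 to 654, 5680 and 5129 under these 3 settings in turn.

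Of 13 genes of dNTP supply, 4 were called in the lone comparison, 3 lower and 1 higher, a share of 30.8% against 56.6% of all genes tested. With GC correction 7 were called, while the count over all genes went from 9485 to 10652. RRM2B, the p53-induced small subunit of ribonucleotide reductase, rose from 3.51 to 25.6 CPM, and NME3, a nucleoside diphosphate kinase, fell from 162 to 47.3 CPM. RRM2, the S phase subunit, stood at 208 ± 25.95 and 168 ± 7.37 CPM (SD, n = 3 each) and was not called (edgeR adjusted p = 0.0789). In co-culture AK1, an adenylate kinase, was the 1 gene of 13 called within the knockout, from 14.98 to 31.3 CPM. This share was 7.69%, against 11.4% of all genes tested. Of 10 breakdown genes tested, 5 were called in the lone comparison, 3 lower and 2 higher, a share of 50% against the same 56.6%. CDA, the cytidine deaminase, rose from 22.3 to 88.8 CPM, and NT5E, an ectonucleotidase, rose from 11.3 to 40.3 CPM. Co-culture of the knockout called 0 of these 10, where 11.4% of all genes tested were called. SAMHD1, a dNTP hydrolase, stood at 19.3 CPM alone and 13.2 CPM in co-culture (edgeR adjusted p = 0.125).

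Of 16 folate and one-carbon genes tested, 9 were called in the lone comparison, 4 higher and 5 lower, with a median of 0.05, and this share of 56.25% is near the 56.6% of all genes tested. GLDC, the glycine decarboxylase that feeds the same folate pool as SHMT2, rose from 9.32 to 101 CPM, and FOLR1, a folate receptor, stood at 29 to 58 counts in the lone control and at 0 to 1 in the lone knockout. Within the knockout, 2 of 16 were called in co-culture, a share of 12.5%, near the 11.4% of all genes tested. That count was 0 without replicate 1 of either knockout group and 4 without replicate 3 of the co-cultured knockout. Over all genes the count, 1907, was 603 without replicate 1 of the lone knockout and 536 without replicate 1 of the co-cultured knockout. It was 5680 without replicate 3 of the co-cultured knockout. ALDH1L1, a folate dehydrogenase, rose from 5 to 10 counts to 27 to 58 counts per library. Of 5 uracil excision genes, 3 were lower and 1 higher in the lone knockout, where 28.6% of all genes were lower and 28% higher, with APEX1, the abasic site nuclease, at 488 and 232 CPM and SMUG1, a uracil glycosylase, at 49.3 and 23.96 CPM, both called. UNG, the main glycosylase for uracil in DNA, was lower as well (167 and 122 CPM). Co-culture of the knockout called 0 of the 5, where 11.4% of all genes tested were called. Of 5 nucleoside transporters tested, 3 were lower and 1 higher in the lone knockout, against the same shares. SLC29A2, an equilibrative nucleoside transporter, fell from 44.2 to 9.01 CPM and SLC25A33, a mitochondrial pyrimidine nucleotide carrier, from 23.0 to 7.26 CPM. Within the knockout 0 of the 5 were called, against the same 11.4%, with edgeR adjusted p = 0.166 for SLC29A2 and 0.203 for SLC25A36, a carrier of the same kind as SLC25A33.

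**Figure D5:**
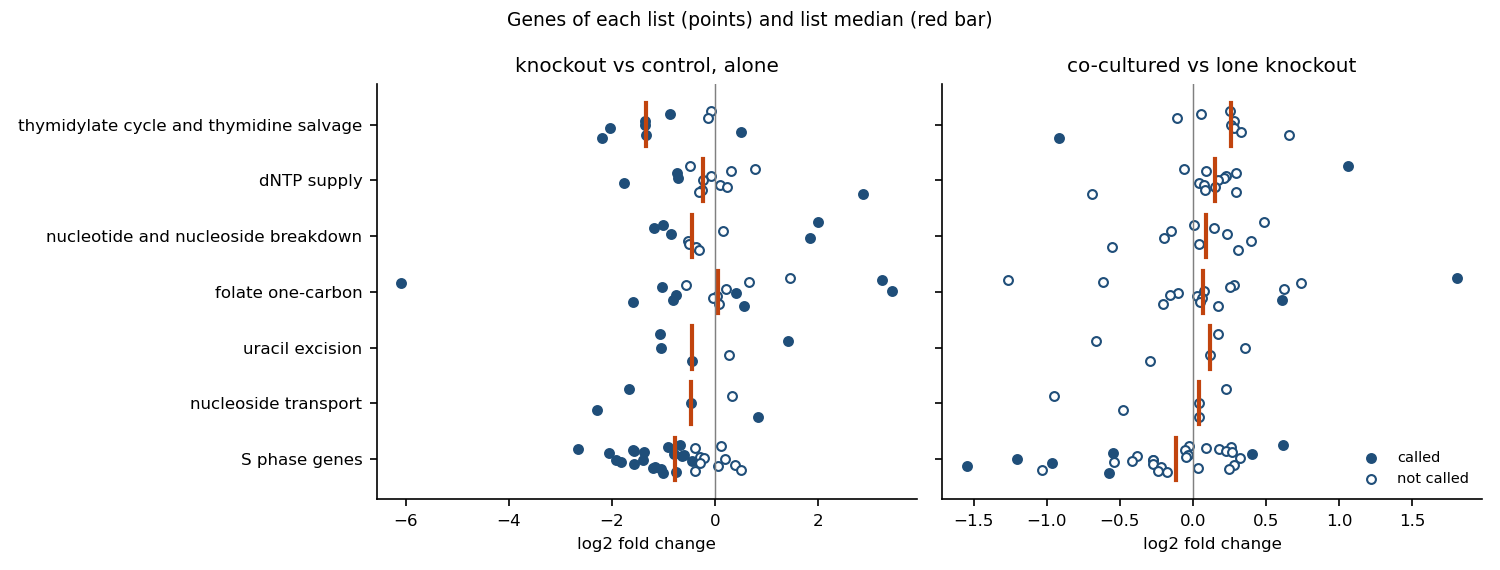
Log2 fold changes (horizontal axes, which differ in scale) of the genes of each list in 2 comparisons; filled points are called, open points are not, and the red bar is the list median. In the lone comparison the median of the 9 thymidylate genes is -1.34, which goes to -0.57 with GC correction (not drawn), and within the knockout TYMS, at -0.92, is the 1 filled point of that row.

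The genes whose log2 CPM ran most like TYMS over the 12 libraries, out of 15590 named genes tested, were ZBED2, DNMT1 and KDM1A, with Pearson correlations of 0.996, 0.995 and 0.994. DNMT1, the maintenance DNA methyltransferase, stood at 320 ± 23.9 CPM in the lone control, 309 ± 27.3 in the co-cultured control, 144 ± 3.37 in the lone knockout and 103 ± 4.18 in the co-cultured knockout (SD, n = 3 each), and so shared the lower level in co-culture. For TK1 they were FARSA, STX10 and MRPL2 with correlations of 0.997 each, of which FARSA has a transcript GC content of 61.6% beside 61.7% for TK1. For TYMP they were RHBDD3, ATG101 and GPRC5C with correlations of 0.992, 0.990 and 0.989. These correlations rest on 12 libraries in 4 groups that share the knockout difference and the GC trend, and are given as descriptions.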

How the data were processed

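Total RNA of 12 libraries, 3 in each of 4 groups at day 14, was sequenced, and the authors deposited raw read counts per gene. Per the submitters' processing notes the tools were FastQC, STAR 2.7.9a, featureCounts, R 4.2.1 and DESeq2 1.36.0, with the build GRCh38 (hg38). The annotation and the strand setting are not given in the sources used here. Genes were filtered with filterByExpr, scaled by TMM and tested with edgeR 4.0.16 (quasi-likelihood, robust) in R 4.3.3, with 1 mean per group over all 12 libraries. P-values were adjusted by Benjamini-Hochberg over 16768 genes, and called means an adjusted p below 0.05. Intervals are ± 1.96 SE. The biological coefficient of variation was 22.1%. Positions, exon lengths and GC content came from the GENCODE 29 annotation. GC correction added a smooth GC trend per library as offsets, fitted to its deviations from each gene's mean over all 12 libraries. The code was tested on simulated data.

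The text names all 9 members, genes whose exons overlap theirs, the 3 genes most like TYMS, TK1 and TYMP, and the 9p21 genes. Of each list it names the 2 genes with the smallest p in the lone and in the knockout co-culture comparison. EPCAM and the other lung epithelial markers, PTPRC, CD3E, CD14, CD68, VWF and the RefSeq promoter motifs were added as checks. A gene that the rule for the lists names is not reported here. Members and lists were chosen with earlier results of these data known. Alternatives were library size only, relative log expression factors, no filter, the replicate block, GC offsets, both together, only the 2 groups compared, each library left out, and DESeq2 1.42.0. The list counts and the members' median under these alternatives were added after seeing the data.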

Additional observations from a re-analysis of the deposited data

Results flagged for a closer look

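TYMS was flagged because the effect of co-culture differed between knockout and control cells by a test of the difference itself. The co-culture difference in the knockout minus that in the control was -0.89 on the log2 scale (edgeR adjusted p = 0.0107). Without a filter on low counts it was -0.78 and not called (edgeR adjusted p = 0.103). In this difference too, the guide and the identity of the cells cannot be told apart. TYMS was lower in 3 of 3 co-cultured knockout libraries than in every lone knockout library, while the control groups overlapped.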

How the results depend on the processing

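Of the members' log2 fold changes under the alternatives, 613 kept their direction and side of the threshold, 11 lost a call, 8 gained one and 43 changed sign; every sign change was in a difference not called in the edgeR fit of all libraries. The count of genes called between co-cultured and lone knockout, 1907, was 3340 without a filter, 1080 with the replicate block, 5129 with GC offsets, 4372 with the replicate block and GC offsets, 664 with only the 2 groups, 3239 with DESeq2 and 536 to 5680 with 1 library left out. The members called there were 2 without a filter, with GC offsets and with the replicate block and GC offsets, and 1 to 2 with 1 library left out. Genes called in the interaction, 301, were 1342 without a filter, 179 with the replicate block, 1584 with GC offsets, 1026 with the replicate block and GC offsets, 872 with DESeq2 and 119 to 3623 with 1 library left out, and members called were 1 to 2. Without a filter the 1 member called in the interaction was TYMP, higher (1.11, adjusted p = 0.00535), in place of TYMS, lower (-0.78, adjusted p = 0.103). Between co-cultured and lone control 2 genes were called without a filter. The cause was not tested.

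The share of higher calls between co-cultured and lone knockout went from 52.5% to 69.6% with library size only and 71.5% with the 2 groups, and fell to 36.6% (2077 higher, 3603 lower) without replicate 3 of the co-cultured knockout; in the interaction it went from 84.1% to 55.5% with GC offsets, 54.7% without a filter, 64.3% with DESeq2 and 33.1% (1201 higher, 2422 lower) without that same library, so that the majority of calls turned in both. Correlations of deviations were -0.603 to 0.491 for equal replicate numbers and -0.619 to 0.639 for others. Outside the co-cultured knockout, libraries numbered 1 correlated at 0.189 to 0.491 and those numbered 3 at 0.308 to 0.412. Those numbered 2 correlated there at -0.073 to -0.024. Replicate 3 of the co-cultured knockout correlated at -0.603 to -0.523 with the others numbered 3, and at 0.357 to 0.639 with the libraries numbered 1 of the other groups. Replicate 1 of the co-cultured knockout correlated with those libraries numbered 1 at -0.247 to -0.170. The labels do not say whether equal numbers share a batch, and this was not tested. The replicate block alone changed no call of a member.

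Signs changed as follows on the log2 scale. With library size only, DUT and DCTD were 0.011 and 0.084 in the lone knockout comparison, DTYMK -0.0066 between co-cultured and lone knockout, TYMS 0.032 between co-cultured and lone control and DCTD -0.097 in the interaction. The DUT interaction was 0.081 with relative log expression factors, 0.095 without a filter and 0.077 with DESeq2. Without a filter DCTD was 0.055 in the co-cultured knockout comparison, and 0.0068 with only the 2 groups, and DUT was 0.018 between co-cultured and lone knockout. With GC offsets, and then with the replicate block as well, TYMP was 0.15 and 0.16 in the co-cultured comparison and 0.055 and 0.054 in the control, DTYMK -0.14 and -0.13 and DUT 0.23 and 0.25 between co-cultured and lone knockout, and the interaction was -0.016 and -0.015 for DTYMK, 0.46 and 0.48 for DUT and -0.028 and -0.028 for DCTD. With 1 library left out, the interaction was -0.095 to 0.067 for DUT and -0.035 to 0.11 for DCTD, co-cultured against lone control was -0.069 to 0.011 for TYMS, -0.25 to 0.0021 for SHMT1, -0.36 to 0.016 for SHMT2 and -0.40 to 0.040 for DTYMK, DTYMK was -0.12 to 0.22 between co-cultured and lone knockout, and DCTD was -0.13 to 0.034 in the co-cultured knockout comparison.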
